A study of Mus musculus with 12 samples.

Results

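The peaks described here were called by the authors for H3K36me2, histone H3 dimethylated at lysine 36, in mouse somatosensory cortex. They lay inside genes without a protein product. A peak was taken when its midpoint fell in the body of an annotated long noncoding RNA (lncRNA) gene, other RNA gene or pseudogene, fell in no protein-coding gene, and lay more than 5000 bp from every protein-coding gene start or end. The control (Ctrl) list held 18 such peaks of 231 and the conditional knockout (cKO) list 265 of 3491, together 283 of 3722. In controls 4 of the 18 (22.2%) had a q-value under 0.05, against 9.96% of the whole control list. In cKO 34 of the 265 (12.8%) did, against 18.4% of the whole cKO list. Most of the described peaks were therefore weakly supported as sites of the mark by the authors' q-values. The study profiled 12 libraries from mice aged 2.5 months, in 4 groups of 3: H3K36me2 immunoprecipitates and inputs of each genotype. The cKO animals were labelled Nsd1Nex-cKO, a genotype in which Cre recombinase under Nex control, active in excitatory forebrain neurons, removes Nsd1. The controls were labelled Nsd1fl/+ (2 of the 3 animals in each control group) or Nsd1fl/fl (1 of 3), so each control carried at least 1 floxed allele and the labels named no wild-type animal. Each genotype was represented by 1 deposited peak list, so no value below has a replicate error, no test between genotypes could be made, and read depth was unknown. The lists hold no expression values, so the tissue label could not be checked against marker genes. Nuclei came from dissected somatosensory cortex and the labels name no cell sorting, so cells outside the Nex lineage, which keep Nsd1, may be included, and a mark carried by fewer cells cannot be told apart from a weaker mark in each cell.

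NSD1 is a histone methyltransferase that places H3K36me2, largely in broad regions between and within genes, and this mark helps to recruit the DNA methyltransferase DNMT3A. LncRNA genes are transcribed by RNA polymerase II but code for no long protein, and some act on neighbouring genes or carry small RNAs in their introns. Pseudogenes are disabled copies of genes, many of them members of large families with near-identical copies. How reads that match several copies were placed is not given in the sources used here, so positions in such families are uncertain.

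Sequence was available from RefSeq (GRCm38.p6, whose chromosome coordinates mm10 shares) for windows around annotated gene starts, running from 250 bases before a start to 50 after it. Of the 254 noncoding genes with a cKO peak 147 had such a window, as did 6 of the 14 genes with a control peak. The described cKO peaks touched 5 windows and the control peaks 0. These 5 windows are shown because they are the stretches in which a described peak can be read base by base, with the bases inside the peak in capitals, 5′ to 3′ on the strand of the gene.
Gm36313, minus strand, chr10:25153346-25153645: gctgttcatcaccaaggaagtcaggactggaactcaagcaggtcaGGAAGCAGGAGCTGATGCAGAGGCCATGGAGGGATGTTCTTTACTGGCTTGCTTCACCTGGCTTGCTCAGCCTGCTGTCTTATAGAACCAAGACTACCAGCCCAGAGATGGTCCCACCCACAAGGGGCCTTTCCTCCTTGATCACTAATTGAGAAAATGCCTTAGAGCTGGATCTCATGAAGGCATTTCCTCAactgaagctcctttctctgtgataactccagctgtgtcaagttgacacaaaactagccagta
Gm15658, minus strand, chr16:33787100-33787399: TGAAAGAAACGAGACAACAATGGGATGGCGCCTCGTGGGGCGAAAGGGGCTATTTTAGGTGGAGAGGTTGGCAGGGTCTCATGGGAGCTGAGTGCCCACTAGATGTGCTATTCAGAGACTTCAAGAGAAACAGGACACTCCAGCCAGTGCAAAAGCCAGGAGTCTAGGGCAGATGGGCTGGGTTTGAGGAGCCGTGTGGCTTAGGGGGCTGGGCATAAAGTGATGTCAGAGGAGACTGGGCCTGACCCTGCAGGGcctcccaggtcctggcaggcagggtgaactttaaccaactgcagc
Gm45957, plus strand, chr9:4138496-4138795: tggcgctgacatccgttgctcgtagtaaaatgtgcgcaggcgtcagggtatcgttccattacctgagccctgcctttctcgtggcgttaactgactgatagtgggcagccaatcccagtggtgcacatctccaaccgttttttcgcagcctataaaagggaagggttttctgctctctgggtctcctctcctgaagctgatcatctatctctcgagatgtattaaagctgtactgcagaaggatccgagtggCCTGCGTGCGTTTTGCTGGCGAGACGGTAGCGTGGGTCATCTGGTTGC
4930428G15Rik, plus strand, chr9:115335911-115336210: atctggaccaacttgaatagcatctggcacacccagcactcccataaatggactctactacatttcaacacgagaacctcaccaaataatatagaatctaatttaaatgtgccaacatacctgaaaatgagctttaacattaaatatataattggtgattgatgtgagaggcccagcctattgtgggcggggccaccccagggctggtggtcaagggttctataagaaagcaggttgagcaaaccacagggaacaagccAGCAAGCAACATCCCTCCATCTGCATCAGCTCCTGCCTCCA
Gm36117, plus strand, chr17:13034494-13034793: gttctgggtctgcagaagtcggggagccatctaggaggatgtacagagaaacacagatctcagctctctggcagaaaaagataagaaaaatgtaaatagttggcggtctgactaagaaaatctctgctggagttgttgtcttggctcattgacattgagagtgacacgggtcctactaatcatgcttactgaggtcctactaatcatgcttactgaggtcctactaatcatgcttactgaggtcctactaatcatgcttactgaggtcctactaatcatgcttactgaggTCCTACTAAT

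The Gm36313 peak lay wholly in its window (193 bp, fold enrichment 2.82), and the window held 0 CG dinucleotides. The Gm15658 peak shared 255 of its 526 bp with the window (fold 2.81), with 5 CG dinucleotides. The Gm45957 peak had the highest fold of the 5 (3.22) and the window richest in CG, with 17 and an observed to expected ratio of 0.810. The 4930428G15Rik and Gm36117 peaks (folds 2.81 and 2.74) reached 41 and 10 bases into their windows. Each of the 5 carried a −log10 q of at most 0.707, so none reached a q-value of 0.05. The Gm36313 and 4930428G15Rik windows share the stretch GCAGGAGCTGATGCAGA, 17 bases, in opposite orientations, and on either strand it occurs in 30 of all 32851 windows in the table (0.0913%). In both windows this stretch lies in the capitals. The Gm36117 window ends in a tandem repeat of ggtcctactaatcatgcttactga, a unit of 24 bases that fills the last 132 bases of the window. The peak begins in the last, incomplete copy that the window holds. How far the repeat runs beyond the window is unknown. Both stretches were looked for after the sequences had been seen.

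A microRNA gene also lay in a cKO peak. Mir8117 encodes a microRNA precursor inside the lncRNA gene Gm40301, and the whole precursor fell in the peak at chr5:50252647-50253001 (fold 2.34, −log10 q 0.126), 194 kb from Adgra3. The precursor is shown with the mature part in capitals, and the mature microRNA with its seed, bases 2 to 8, in capitals, both from RefSeq.
Mir8117 precursor: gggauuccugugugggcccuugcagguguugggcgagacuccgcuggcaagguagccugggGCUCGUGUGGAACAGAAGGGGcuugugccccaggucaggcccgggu
mmu-miR-8117: gCUCGUGUggaacagaagggg
Mir8117 was the only one of 1169 microRNA genes that held a described cKO peak, and 0 held a control peak.

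The first question was how many peaks fell in noncoding genes, given how much sequence such genes cover. In cKO cortex the 265 peaks made up 7.59% of the list (Wilson 95% interval 6.76 to 8.52), while the sequence that met the position rule, 189 Mb, was 7.01% of the annotated span of 2703 Mb. In controls the 18 peaks made up 7.79% (4.99 to 11.98). The density of peaks in noncoding genes was therefore 1.08 times that of the whole cKO list (Poisson 95% interval 0.957 to 1.22) and 1.11 times that of the whole control list (0.659 to 1.76). Both intervals include 1. All intervals here cover counting error alone and treat peaks as independent.

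The biotypes differed in density. LncRNA genes held 194 cKO peaks over 162 Mb, 0.930 times the density of the list (0.803 to 1.07), and 9 control peaks, 0.652 times (0.298 to 1.24). Pseudogenes held 64 cKO peaks over 25.0 Mb, 1.98 times the density of the list (1.53 to 2.53), and 7 control peaks, 3.27 times (1.32 to 6.75). The pseudogene interval lay above 1 in both lists, whereas over all peaks the lncRNA interval included 1 in both. A peak is called grouped below when 3 or more further peaks, of whichever list, lay no more than 100 kb away, which held for 10 of the 64 cKO and 5 of the 7 control pseudogene peaks. Without grouped peaks the pseudogene ratio was 1.82 (1.37 to 2.38) in cKO and 1.86 (0.226 to 6.73), on 2 peaks, in controls. With both lists limited to a −log10 q of 2 or more, the pseudogene ratio was 1.16 (0.315 to 2.96), on 4 peaks, in cKO and 10.8 (1.31 to 39.03), on 2 peaks, in controls. Both of those control peaks lay in the same pseudogene, Pisd-ps2. The control interval treats them as independent and so cannot show a raised density beyond that gene. The lncRNA ratio at that limit was 0.581 (0.310 to 0.994), on 13 peaks, in cKO, an interval that lay below 1, and 1.67 (0.203 to 6.04), on 2 peaks, in controls. Other RNA genes held 4 cKO peaks and 1 control peak, and genes of several biotypes overlapped at 3 and 1.

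**Figure D1:**
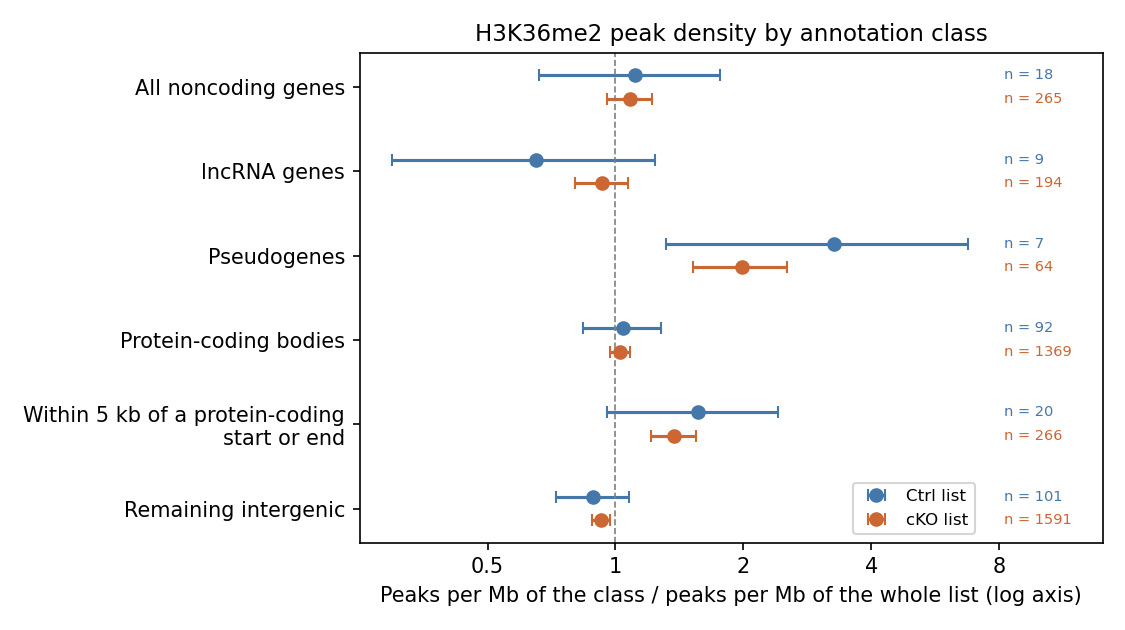
Peak density in each annotation class divided by the density of the whole list, on a log axis, for the control and cKO lists; points are ratios, bars are Poisson 95% intervals for counting error, and n is the number of peaks. Pseudogenes lie at 1.98 (cKO) and 3.27 (Ctrl), and all noncoding genes together lie at 1.08 and 1.11.

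The control peaks were few enough to give in full. The highest fold enrichment, as the authors' peak caller gave it, was 3.48 in the lncRNA gene Gm38475 (chr6:145609101-145609247), 6.79 kb from the tubulin gene Tuba3b. Gm7104, a transcribed pseudogene, followed at 3.42 (chr12:88286737-88286916), then the lncRNA gene Gm20752 at 3.257 (chr3:159210491-159210784) and the olfactory receptor pseudogene Olfr268-ps1 at 3.02 (chr2:111850955-111851101). These 4 peaks stood highest in fold, yet their −log10 q ran from 0.0207 to 0.0976 and none overlapped a cKO peak. The lncRNA gene Gm33027 held a peak of 480 bp (chr7:129400523-129401002, fold 2.86) with a −log10 q of 0.

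The 4 control peaks of highest −log10 q had folds of 1.28 to 1.90, below the control median of 2.19. Gm33838, a lncRNA gene, had 503 at a fold of 1.55 (chr9:35305331-35305485), and 2700054A10Rik, a lncRNA gene 166 kb from the t-complex gene Tcte2, had 8.40 at a fold of 1.28 (chr17:13550768-13551057). Pisd-ps2, a transcribed pseudogene of the phosphatidylserine decarboxylase gene Pisd, held peaks at chr17:3077659-3077940 and chr17:3079376-3079523, with −log10 q of 2.04 and 2.19 and folds of 1.78 and 1.90. These 4 peaks were the 4 of 18 with a q-value under 0.05 (22.2%, 9.001 to 45.2), against 9.96% of the whole control list. They were also the 4 with a −log10 q of at least 2, where the share of the whole control list was 8.66%.

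The remaining 9 control peaks had folds of 1.85 to 2.88 and −log10 q of at most 0.828. Speer4cos, a transcribed pseudogene in a cluster of spermatogenesis-associated Speer genes, held 3 (chr5:15688521-15689621, chr5:15690393-15690778 and chr5:15692001-15692381), with folds of 2.09, 1.85 and 1.99. The first of these spanned 1101 bp and was the widest of the 18. Snhg14 held 3, described below. Gm28905 (chr10:10026922-10027068, fold 2.36), Gm31340 (chr15:8814136-8814445, fold 2.34), both lncRNA genes, and 4932431P20Rik, listed as a miscellaneous RNA gene (chr7:29526046-29526286, fold 1.98), held 1 each.

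In cKO cortex the highest fold was 4.44, in the lncRNA gene Gm39300 (chr9:20841247-20841537, −log10 q 2.74), 13.3 kb from the retinol dehydrogenase gene Rdh8. It was followed by Gm46038 (chr8:34476276-34476423, fold 4.11, −log10 q 1.78), 306 kb from the calcium entry regulator gene Saraf. Gm30928 came next (chr7:126347727-126347912, fold 3.96, −log10 q 7.87), 16.01 kb from Lat, a T-cell adaptor gene. These 3 lncRNA genes each had a q-value under 0.05, and each peak spanned 148 to 291 bp.

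The next 7 cKO peaks by fold followed closely. The lncRNA gene Gm33262 (chr2:168333915-168334062, fold 3.79) lay 52.5 kb from the potassium channel subunit gene Kcng1. The lncRNA genes Gm30382 and A630039O03Rik overlap each other, and their peak (chr3:149437714-149438003, fold 3.72) lay 449 kb from the latrophilin gene Adgrl2. The pseudogene Gm11855 (chr4:15821093-15821239, fold 3.66) lay 60.1 kb from Calb1, which encodes the calcium-binding protein calbindin. The other 4 were in the lncRNA gene Gm41787 (3.71, 7.76 kb from the homeobox gene Adnp2), in the lncRNA gene Gm5432 (3.67, 31.7 kb from the pseudokinase gene Trib2), in a pseudogene and a lncRNA gene that overlap, Gm14412 and Gm41986 (3.62), and in the pseudogene Gm2412 (3.53, 13.7 kb from the sorting nexin gene Snx6). Of these 7, Gm33262, Gm41787 and Gm2412 had a −log10 q of 1.38, 1.96 and 2.00 and so a q-value under 0.05, whereas the others, at 0.972 to 1.14, did not reach it.

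By −log10 q the order was different. The highest value was 1004, again in Gm33838 (chr9:35305317-35305504, fold 1.82), then 53.9 in the lncRNA gene Gm36684 (chr17:13306011-13306201, fold 1.86) and 48.4 in the pseudogene Gm20590 (chr13:74528689-74530635, fold 1.59). 2700054A10Rik followed at 47.0 (chr17:13550718-13553077, fold 1.47) and C330002G04Rik, a lncRNA gene 64.1 kb from the cation channel gene Trpm3, at 9.80 (chr19:23059460-23059618, fold 3.39). The first 4 of these had folds under 1.9, well below the cKO median, and C330002G04Rik was the first with a fold above it. The 2700054A10Rik and Gm20590 peaks were also the widest, at 2360 and 1947 bp, followed by Gm46449 (1247 bp, fold 2.88), Pisd-ps2 (879 bp, fold 1.69) and Snhg14 (796 bp, fold 2.38).

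**Figure D2:**
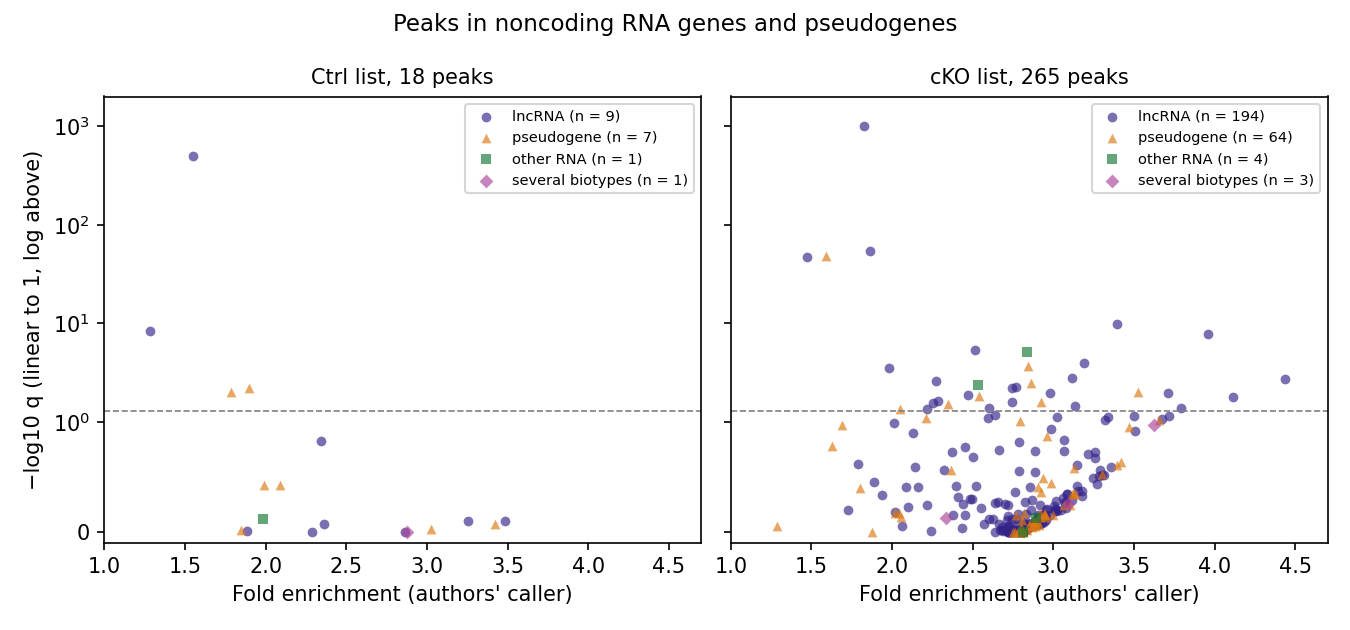
Fold enrichment (x axis) and −log10 q (y axis, linear to 1 and log above) of each peak in a noncoding gene, with the control list at left and the cKO list at right; symbols mark the biotype, and the dashed line is a q-value of 0.05. The highest −log10 q in each list, 503 and 1004, lie at folds of 1.55 and 1.82, and 4 control and 34 cKO peaks lie above the line.

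Of the 265 cKO peaks, 34 had a q-value under 0.05 (12.8%, 9.33 to 17.4), against 18.4% of the whole cKO list and 607 of the 3226 cKO peaks outside the described genes (18.8%, 17.5 to 20.2). The share was 12.4% in lncRNA genes (24 of 194) and 12.5% in pseudogenes (8 of 64). Peaks in protein-coding gene bodies had 19.8% (17.8 to 21.99), those within 5 kb of a protein-coding start or end 28.2% (23.1 to 33.9) and the remaining intergenic peaks 16.4% (14.7 to 18.3). Without grouped peaks the described share was 29 of 241 (12.03%) and that of the whole cKO list 541 of 3203 (16.9%). A −log10 q of at least 2 was reached by 19 of 265 (7.17%, 4.64 to 10.9), against 10.7% of the whole cKO list. In controls the direction was the opposite, with 22.2% (9.001 to 45.2) of the described peaks and 8.92% (5.78 to 13.5) of the others under 0.05, on 4 and 19 peaks. These intervals overlap, and 2 of the 4 peaks lie in Pisd-ps2. Without grouped peaks the described control share was 1 of 9 (11.1%) and that of the whole control list 2 of 116 (1.72%). With 1 list per genotype none of these differences could be tested over replicates.

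Fold enrichment and width differed little from the rest of each list. The median fold was 2.82 in the described cKO peaks (order-statistic 95% interval 2.81 to 2.86) and 2.82 in the other cKO peaks (2.81 to 2.84). In controls the medians were 2.19 (1.88 to 2.88) and 2.18 (2.08 to 2.31). Median widths were 261 bp (224 to 290) against 250 bp in cKO, and 286 bp (155 to 386) against 297 bp in controls. The shortest peak spanned 147 bp in each list. Within the cKO peaks, pseudogenes had a median fold of 2.87 (2.81 to 2.92) and lncRNA genes 2.81 (2.78 to 2.84), intervals that overlap.

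By biotype, the 19 cKO peaks at a −log10 q of 2 or more included 13 in lncRNA genes, 4 in pseudogenes and 2 in miscellaneous RNA genes. Besides those given above, the lncRNA genes included Gm33504 (3.98 at a fold of 3.19), 13.99 kb from the interferon-induced gene Ifitm3, and Gm40034 (3.55 at 1.98). Gm30212 (2.62 at 2.27) lay 32.6 kb from the vinculin gene Vcl. Gm5106 (2.22 at 2.74) lay 9.73 kb from the drug transporter gene Abcb1b. Among pseudogenes, Gm37108 (2.52 at 2.86) lay 56.3 kb from St18, a zinc finger transcription factor gene, and Speer8-ps1 had 3.70 at a fold of 2.84. The miscellaneous RNA genes were 4932431P20Rik (5.11 at 2.84) and Platr25 (2.36 at 2.53), which held a further peak with a −log10 q of 0.

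Snhg14 held more of the described peaks than any other gene in cKO, and in controls it tied with Speer4cos. This gene is the long host transcript of the Prader-Willi and Angelman region, is expressed from the paternal allele, runs antisense to Ube3a in neurons and releases arrays of small nucleolar RNAs (snoRNAs) from its introns. It spans 1177 kb on the minus strand (chr7:59272737-60450177) and contained 206 annotated snoRNA genes in 4 runs. The run nearest the start that held peaks consists of 19 genes, 17 of them named as Snord116 copies, and had 5 cKO and 0 control peaks. The next, 51 genes spaced 2528 bp apart (median), had 5 cKO and 3 control peaks. The longest run, 134 genes spaced 1871 bp apart over 272 kb, had 0 peaks of either list.

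The 3 control peaks in Snhg14 had folds of 2.29 (chr7:59748095-59748507), 1.88 (chr7:59766999-59767641) and 2.88 (chr7:59789281-59789560), with −log10 q of 0, 0.00936 and 0. The last of them covered the snoRNA gene Gm26246. The 10 cKO peaks had folds of 1.72 to 2.76 and −log10 q of 0.151 to 5.42, the highest at chr7:59771503-59771649, 6 bp from a snoRNA gene. A q-value under 0.05 was found for 3 of the 10, with −log10 q of 5.42, 1.55 (chr7:59749096-59749242) and 1.37 (chr7:59778515-59779100), and for 0 of the 3 control peaks, beside 18.4% of the whole cKO list and 9.96% of the whole control list. Counts this small do not set Snhg14 apart from the lists in its share under a q-value of 0.05. In number of peaks it held 10 and 3 over 1177 kb, beside 1.40 described cKO and 0.0951 described control peaks per Mb. Snhg14 was picked for its number of peaks, so this difference was not tested. The peaks lay 559 to 702 kb from the gene start, and 1 pair overlapped between the lists, that at chr7:59767105-59767571 in cKO. A further 2 cKO peaks in Snhg14, 431 and 433 kb from its start (folds 3.01 and 3.31), lay in a protein-coding gene body and are not counted among the 10.

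**Figure D3:**
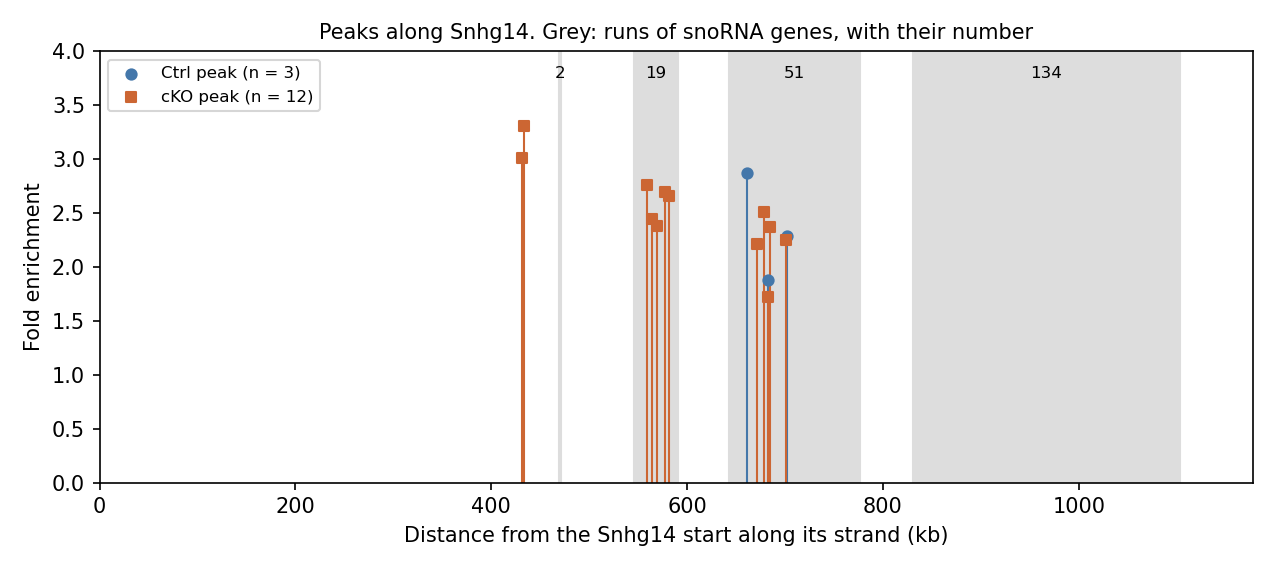
Peaks along Snhg14 by distance from its start in kb (x axis) and fold enrichment (y axis), for the control and cKO lists; grey bands are runs of snoRNA genes with the number of genes above. Peaks lie in the bands of 19 and 51 genes and none in the band of 134, and the 2 cKO peaks at 431 and 433 kb lie in a protein-coding gene body.

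The second comparison asked which peaks in noncoding genes the genotypes shared. At least 1 bp was shared by 8 of the 18 control peaks (44.4%, 24.6 to 66.3), against 42.4% of the whole control list, and by 8 of the 265 cKO peaks (3.02%, 1.54 to 5.84), against 2.81% of the whole cKO list. Both shares were near those of the whole lists. The 8 pairs lay in 5 lncRNA genes, 2 pseudogenes and the miscellaneous RNA gene 4932431P20Rik. Of the 8 pairs 4 were grouped, as were 9 of all 18 control peaks (49.8% of the whole control list) and 24 of all 265 cKO peaks (8.25% of the whole cKO list). The partner of an overlapping peak counts toward the 3 further peaks needed. The count for pairs is therefore raised in part by construction.

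Among the lncRNA genes, Gm31340, 103 kb from the astrocytic glutamate transporter gene Slc1a3, had a fold of 2.34 in controls and 2.47 in cKO (chr15:8814116-8814449). Gm28905, 126 kb from Stxbp5, which encodes the synaptic protein tomosyn, had 2.36 and 2.14 (chr10:10026916-10027091). Gm33838 had 1.55 and 1.82, 2700054A10Rik 1.28 and 1.47, and Snhg14 1.88 and 1.72. The pseudogenes Pisd-ps2 (1.78 and 1.69) and Speer4cos (2.09 and 1.80) had the lower fold in cKO. The widest gap was in 4932431P20Rik, with 1.98 in controls and 2.84 in cKO (chr7:29526002-29526331) and −log10 q of 0.119 and 5.11. The fold was higher in cKO in 4 pairs and lower in 4. The −log10 q was higher in cKO in 6 pairs, Pisd-ps2 (2.04 and 0.972) and Speer4cos (0.428 and 0.395) being the exceptions. These gaps have no error and were not tested, since each list came from its own peak calling.

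**Figure D4:**
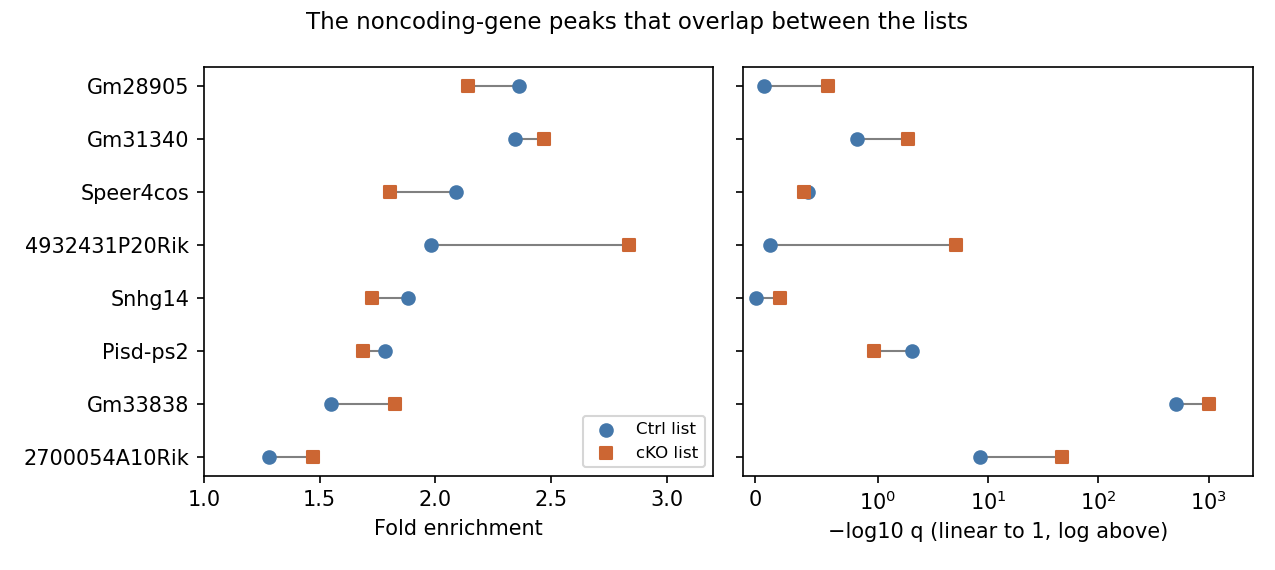
Fold enrichment (left) and −log10 q (right, linear to 1 and log above) of the 8 pairs of peaks that overlapped between the lists, with circles for controls and squares for cKO. 4932431P20Rik has the widest gap in fold, from 1.98 to 2.84, and fold was higher in cKO in 4 of the 8 pairs.

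More peaks lay in the same genes than overlapped. Of the 14 noncoding genes with a control peak 8 also held a cKO peak, and these 8 genes carried 13 of the 18 control and 20 of the 265 cKO peaks. Each overlapping pair already shares a gene, so the count by gene could not be the lower. It was not made for protein-coding genes, so no share over all genes stands beside it. In Snhg14, Pisd-ps2 and Speer4cos some control peaks lay close to a cKO peak without touching it, at 0.588, 0.894 and 1.04 kb. The overlapping control peaks had a median fold of 1.93 and a highest fold of 2.36, and the 10 others a median of 2.87. In cKO the medians were 1.81 for the 8 overlapping peaks and 2.83 for the 257 others. The same split was not made over the whole lists, so it cannot be called particular to noncoding genes. The 4 control peaks of highest fold were 20.1 to 617 kb from the nearest cKO peak.

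The lists of noncoding genes gave few members. Of 41 well-studied noncoding RNA genes found in the annotation, such as Malat1, Meg3, Xist, Miat, Kcnq1ot1 and Sox2ot, 1 held a described peak, Snhg14, in either list. No described peak lay in any of the 14 microRNA host genes, the 324 ribosomal protein pseudogenes or the 13 zinc finger pseudogenes. Of 226 antisense or opposite-strand genes 1, Speer4cos, held a peak in each list. Of 2352 small nuclear and nucleolar RNA genes 1, Gm26246 in Snhg14, held a control peak and 0 held a cKO peak. Olfr268-ps1 was the single one of 317 olfactory receptor pseudogenes, in controls alone. Of 291 vomeronasal receptor pseudogenes 2 held a cKO peak, Vmn2r-ps11 (chr3:64763078-64763406, fold 2.81) and Vmn2r-ps15 (chr4:145756832-145757472, fold 2.95), and 0 a control peak. These counts stand beside 254 of all 27534 noncoding genes with a cKO peak (0.922%) and 14 with a control peak (0.0508%). Many of these genes are short and offer few bases to a peak midpoint. Of the 27534 genes, 18345 had a base that met the position rule, and the others could hold no described peak. The gene lists, microRNA genes included, were not recounted over such genes alone, so a count of 0 may follow from the rule.

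Most host genes bore provisional names, as did most annotated noncoding genes. Of the 254 cKO genes 234 were named by Gm, Rik or LOC identifiers, and 10 of the 14 control genes were. Over the annotation 23178 of all 27534 noncoding genes were so named, and no difference from this share was tested. Named pseudogenes with a cKO peak included the cytochrome P450 copies Cyp2c53-ps (fold 2.04) and Cyp2b28-ps (2.81), the homeobox copy Obox4-ps23 (2.90), Ppp4r1l-ps (3.30) and the 18S ribosomal RNA copy Rn18s-rs5. The last had the lowest fold of the 265, 1.29. Rnls, the renalase gene, is listed as a transcribed pseudogene in this annotation and held a peak with a fold of 2.84. Named lncRNA genes included Wincr1 (3.27), AW549542 (2.91, 99.5 kb from the T-box gene Tbx3) and Mup-ps15 (2.83), which the annotation lists as a lncRNA. All of these named genes had a −log10 q under 0.6. More than 1 described peak was held by 15 cKO genes, led by Snhg14 with 10 and Speer8-ps1 with 3 (folds 2.02 to 2.84), and by 3 control genes. Among the genes with 2, the pair of overlapping genes Gm30382 and A630039O03Rik held a further peak with a fold of 2.85, and Gm14412 one with a fold of 2.77.

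LncRNA genes with a cKO peak were long, with a median of 33.4 kb (27.4 to 44.9) against 8.43 kb over all 12727 annotated lncRNA genes. Longer genes offer more sequence, and a gene weighted by its bases that met the position rule had a median of 46.8 kb. For pseudogenes the medians were 20.6 kb (7.46 to 36.6) with a cKO peak, 0.921 kb over all 10609 and 19.5 kb weighted. Host lengths were therefore nearer to the weighted than to the unweighted medians. The interval of the lncRNA hosts lay below the weighted median, and that of the pseudogene hosts included it. Each host gene was counted once however many peaks it held, whereas the weighted median counts bases. These measures are unlike, so the place of the intervals cannot show whether host lengths differ from those of the sequence on offer. Gene strand was known for 160 of the 265 cKO peaks, and with each gene divided along its strand in 3 stretches of equal length, 57 lay in the first, 49 in the middle and 54 in the last.

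**Figure D5:**
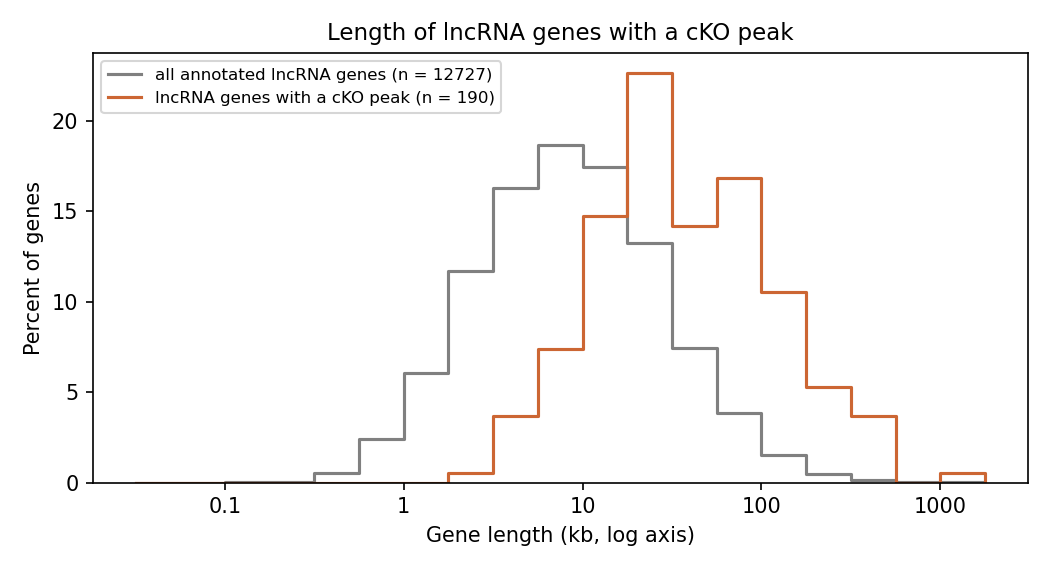
Length in kb (log axis) of the 190 lncRNA genes with a cKO peak and of all 12727 annotated lncRNA genes, each as a percent of its own genes. The genes with a peak have a median of 33.4 kb and all lncRNA genes one of 8.43 kb. Weighted by bases that met the position rule, the median over all lncRNA genes is 46.8 kb.

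Start windows of the cKO host genes were close in base composition to those of other noncoding genes. Over the 222 windows of cKO host genes the median GC content was 47.3% (46.3 to 49.0), against 48.3% in 11364 windows of noncoding genes without a described peak and 56.3% in 21263 of protein-coding genes. A CG observed to expected ratio of at least 0.6 was found in 12.6%, 14.1% and 47.7% of them. The 7 windows of control host genes had a median GC content of 39% (30.7 to 50%), and 0 of them reached that ratio. Windows of the same gene overlap or share sequence and are not independent.

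The cKO peaks in noncoding genes were uneven over chromosomes. Per Mb of sequence that met the position rule, chromosome 7 had 2.54 (30 peaks, Poisson 95% interval 1.71 to 3.62), chromosome 17 had 2.47 (15 peaks, 1.38 to 4.08) and chromosome 5 had 2.19 (22 peaks, 1.37 to 3.32), against 1.40 over all chromosomes. Chromosome 11 had 0.361 (3 peaks, 0.0744 to 1.05) and the X chromosome 0.531 (4 peaks, 0.145 to 1.36). Without grouped peaks chromosome 7 had 18 peaks, or 1.52 per Mb, chromosome 17 had 12, or 1.98, and chromosome 5 had 16, or 1.60. The Y chromosome had 0 peaks in 0.960 Mb, where the Poisson 95% interval reached up to 3.84 per Mb. These chromosomes were picked from all 21 after their values were seen. The whole cKO list held 269 peaks on chromosome 7, 139 on chromosome 17, 254 on chromosome 5, 192 on chromosome 11 and 164 on X. Its density by chromosome was not computed, so unevenness of the described peaks cannot be told apart from that of the whole list.

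Distance from protein-coding genes varied widely. The described cKO peaks lay a median of 48.5 kb (37.1 to 60.2) from the nearest protein-coding gene, and 28 of the 265 lay more than 300 kb away. By the position rule no distance could be 5000 bp or less. The same distances are not given for the whole lists, so these values cannot be called particular to noncoding genes. The farthest were in Gm3116 (1660 kb from Cntnap5b, a neurexin-family gene, fold 2.96), C230029F24Rik (1577 kb from Tmeff2, fold 2.68) and Gm5088 (1426 kb from the protocadherin gene Pcdh20, fold 2.78). Control peaks lay a median of 32.5 kb (17.3 to 166) away and 285 kb at most, in Gm20752. Nearest to the 5000 bp limit, cKO peaks in Gm26511, Gm39558 and Gm10644 lay just inside, at 5.12 to 5.14 kb, with folds of 2.64, 2.41 and 2.99. Those in Gm38973, Gm42306 and 4930526L06Rik lay just outside, at 4.56 to 4.704 kb, with folds of 2.68, 3.36 and 2.83. The control peaks on either side lay at 6.79 kb in Gm38475 and 4.54 kb in Pisd-ps1.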

How the data were processed

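The 12 libraries were H3K36me2 immunoprecipitates and inputs of somatosensory cortex. Cutadapt, Bowtie2 2.4.4, MACS2 and build mm10 are named without roles, per the submitters' processing notes; duplicate handling, treatment of reads with several alignments and pooling are not given in the sources used here. All 6 libraries of a genotype name 1 list, per the labels, and peak names inside the control list read WT. The ratio used is the fold enrichment over local background deposited by the authors, and −log10 q, likewise deposited by the authors, came from their peak caller. The score deposited by the authors was not used. Depth was unknown.

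Midpoints were placed in 49943 RefSeq genes (GRCm38.p6), 27534 of them noncoding. The 522 antigen-receptor and "other" entries were not counted as noncoding, which left out 1 control and 11 cKO peaks, while pseudogenes of receptor segments were kept. A chromosome's length was taken as the span of its genes and peaks. No test across replicates was possible. Wilson, Poisson and order-statistic intervals have 95% confidence. Named peaks were the 10 of highest fold, 5 widest and 5 of highest −log10 q in each list, those in the 5 genes with most peaks, those shared, those in the gene lists and all control peaks; others were named after their values were seen. Members, lists and rules were chosen with earlier results of these data known. The procedures were tested on simulated data. Python 3.11.15, numpy 2.4.6, pandas 2.3.3, scipy 1.17.1 and matplotlib 3.10.9 were used.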

Additional observations from a re-analysis of the deposited data

How the results depend on the processing

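No paired analysis was possible because both peak lists lack replicate numbers, and leaving out a replicate was not possible for the same reason. Restricting both lists to a −log10 q of at least 2 left few peaks and moved most values: 4 control peaks (20% of the restricted list, density ratio 2.85, median fold 1.67) and 19 cKO peaks (5.08%, density ratio 0.725, median fold 2.77, 10.5% shared, with the control list restricted too). All of these, 100%, have a q-value under 0.05 by construction. A distance of more than 20000 bp from protein-coding boundaries lowered the cKO share to 5.70% (199 peaks), since less sequence meets it. Leaving out grouped peaks, chosen after the data were seen, left 9 control peaks. The count, share, density ratio, median fold, share under a q-value of 0.05 and share overlapping, each over all described peaks, otherwise stayed within the main 95% intervals (counts within 1.5 times) under these settings and with autosomes alone, neighbouring peaks joined, a distance of 1000 bp, placement by overlap, antigen-receptor loci counted as noncoding and, for the overlap, 2 other definitions of a shared peak. Values by biotype and by chromosome were not recomputed under those further settings, and several moved out of their intervals with the q limit or without grouped peaks, as given above. Peak lists without depth cannot show whether a region without a peak lacked the mark.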
